A study of Mus musculus with 6 samples.

Results

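Transcripts that differed in the same direction after Sall1 deletion in both mouse lines are described here, from 6 embryonic kidney arrays that make up the whole series. The 3 knockout arrays were set against 3 control arrays as pairs that share a line and a slide: KO7 with WT5, KO9 with WT2, and CreER/flox5 with wt/flox2. A feature is a gene, read by its brightest probe, or a transcript accession where no gene name could be matched. Of 25670 features well above background on at least 3 arrays, 3706 (14.4%) were lower in the knockout of all 3 pairs and 5141 (20.0%) were higher in all 3. These 8847 features are the members, and the remaining 16823 did not keep one direction.

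WT5 and WT2 are controls and KO7 and KO9 are knockouts of the Six2Cre line, in which Cre is driven by Six2, a gene of nephron progenitors, and removes floxed Sall1. The wt/flox2 array is the control and CreER/flox5 the knockout of the Sall1CreER line, in which a tamoxifen-dependent Cre is tied to Sall1 itself; tamoxifen was given at E12.5 and kidneys were taken 48 hours later. All kidneys were from embryos at E14.5 on a mixed 129 and C57BL/6 background. One label speaks of tamoxifen for every sample, so its use in the Six2Cre line is open. CreER is named for the knockout of its pair alone, so the CreER allele and the loss of Sall1 cannot be told apart there. Whether Cre was present in the Six2Cre controls, which exons were floxed and whether arrays came from separate embryos is not stated in the labels, so p-values measure only the spread between these samples.

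Sall1 is a zinc finger transcription factor that is needed for kidney formation. In the embryonic kidney it is made in the cap mesenchyme, the pool of nephron progenitors around each ureteric bud tip. These cells either renew themselves, with Six2, Cited1 and Osr1 among their genes, or answer Wnt signals from the bud by turning into renal vesicles, which then form podocytes and the tubule segments. Stroma, vessels and macrophages lie between the developing nephrons.

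Levels are on a log2 scale on which 0 is the 75th percentile of the processed signal on that array, and differences are knockout minus control on this log2 scale. Of the measured genes, 29 of 29 of nephron progenitors and 24 of 24 of stroma were well above background on all 6 arrays, as were 86.95% of all features. Most genes on the lists of other tissues were so too: 15 of 16 of muscle, 8 of 9 of gonad, 10 of 13 neural and 7 of 9 adrenal. These counts therefore cannot check the labelled tissue. Six2 lay at 0.54 on WT5, 0.91 on WT2 and 0.93 on wt/flox2. WT5 and KO7 shared slide 1, and the other 4 arrays shared slide 2 and its scan. CreER/flox5 was the noisiest array, with 71.8% of probes well above background against 80.0% to 82.9% on the other 5, and a dimmest well-above-background level of -6.42 against -8.12 to -7.87. WT2 carried muscle transcripts: the summed level of 16 muscle genes, in units of the 75th percentile, was 53.2 there and between 4.86 and 8.37 on the other 5 arrays. Their part in the results was not tested.

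Sall1 itself was lower in all 3 knockouts. Its level was -1.38 on WT5, -0.77 on WT2 and -1.28 on wt/flox2, and -2.65 on KO7, -2.00 on KO9 and -4.06 on CreER/flox5. Every knockout thus lay below every control, and the CreER knockout was the lowest. The differences of -1.27, -1.23 and -2.78 correspond to 2.41-fold, 2.34-fold and 6.86-fold less signal, with a mean of -1.76 (SE 0.36, n = 3 pairs; limma adjusted p = 0.381). The array has 1 Sall1 probe, well above background on all 6 arrays, and where it lies relative to the loxP sites is not stated. In whole kidneys, fewer cells of a type and less RNA per cell cannot be told apart.

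The promoters of Sall1 and of 2 genes that were lower with it are shown as examples. Sall1 is the deleted gene, and no shared control was tested for the 3 promoters. Each is a RefSeq window (GRCm38.p6) from 250 bases before to 50 after a transcription start, written 5′ to 3′ on the gene's own strand, minus for all 3: chr8:89044113-89044412 for Sall1, chrX:102252132-102252431 for Cited1 and chr19:30549447-30549746 for Dkk1. For Sall1 and Cited1 it is 1 of 3 windows of the gene. Capitals mark CTTTGA on either strand, the core that TCF/LEF factors of the Wnt pathway bind.
Sall1: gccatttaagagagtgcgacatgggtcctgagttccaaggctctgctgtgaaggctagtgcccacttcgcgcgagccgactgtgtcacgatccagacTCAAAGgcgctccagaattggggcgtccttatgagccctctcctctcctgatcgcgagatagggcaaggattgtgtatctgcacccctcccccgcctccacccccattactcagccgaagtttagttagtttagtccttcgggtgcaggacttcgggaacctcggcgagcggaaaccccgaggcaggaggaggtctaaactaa
Cited1: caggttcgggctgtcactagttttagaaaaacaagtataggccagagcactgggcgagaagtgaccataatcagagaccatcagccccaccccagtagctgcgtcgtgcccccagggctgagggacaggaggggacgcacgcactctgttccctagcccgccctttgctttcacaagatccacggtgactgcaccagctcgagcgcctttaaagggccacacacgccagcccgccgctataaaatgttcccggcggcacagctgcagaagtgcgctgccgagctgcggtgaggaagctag
Dkk1: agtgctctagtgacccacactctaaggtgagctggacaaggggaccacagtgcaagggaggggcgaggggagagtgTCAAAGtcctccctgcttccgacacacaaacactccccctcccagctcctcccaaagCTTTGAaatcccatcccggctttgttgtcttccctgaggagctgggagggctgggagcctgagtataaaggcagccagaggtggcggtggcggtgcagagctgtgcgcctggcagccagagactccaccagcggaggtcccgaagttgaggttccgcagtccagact
The Dkk1 window held 2 matches, that of Sall1 held 1, and that of Cited1 held 0; the other 2 windows of Sall1 and the other 2 of Cited1 held 0 as well. CTTTGA stood in 5257 of the 32851 windows used and in 1899 of the 15132 windows of genes tested here. Windows of 1 chromosome and windows of another length had been left out, which also limits the matched genes below. Among genes at least 2-fold lower in all 3 pairs, 34 could be matched, and 7 of their 42 windows (16.7%) held it; among those at least 2-fold higher, 21 were matched and 3 of 28 windows (10.7%) did. ATATT, of the AT-rich kind that SALL zinc fingers are known to bind, stood in 15.6% of the tested genes' windows, in 16.7% of those of the lower genes and in 14.3% of those of the higher genes. CTTTGA was chosen after the windows had been read, and both strands and overlapping matches were counted for each motif.

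A shared direction alone was common. In both Six2Cre pairs 24.6% of all features were lower and 34.6% higher, and in the CreER pair 51.0% were lower and 49.0% higher. Many features would thus share a direction even if the lines were unrelated. Across all features, the mean Six2Cre difference and the CreER difference had a Pearson correlation of 0.21. Most shared differences were small. The smallest of the 3 pair differences was under 0.1 in 1989 of the 3706 lower features (53.7%) and in 2599 of the 5141 higher ones (50.6%). A difference of at least 2-fold in every pair was found for 72 lower (0.28%) and 56 higher (0.218%) features, and of at least 1.5-fold for 224 (0.873%) and 225 (0.877%). Of the 72, 49 have a gene name, as do 29 of the 56. At the 2-fold edge, Sh3bgr lay just inside with a smallest difference of 1.01 and Doc2a just outside with 0.999; on the higher side these were Nkx6-1 with 1.02 and Pcdh8, just short of 1. With normexp background correction, 68.9% of the features of one direction were higher, against 58.1% here.

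Limma's paired fit called 0 features lower (0.0%) and 0 higher (0.0%) after Benjamini-Hochberg adjustment over all features, with a lowest adjusted p of 0.163. At an unadjusted p under 0.05 it had 1024 lower (3.99%) and 1495 higher (5.82%). Adjusted p ran from 0.163 to 0.452 for the 72 and from 0.185 to 0.381 for the 56, which were chosen on the same differences. With 3 pairs, an exact two-sided sign-flip test of a single gene cannot go below 0.25. The text therefore gives sizes, directions and overlap of the arrays. In 67 of the 72 lower features every knockout lay below every control (4.43% of all features did), and in 53 of the 56 higher ones every knockout lay above every control (6.78%). A smallest difference of 2-fold largely fixes this, so nothing is read from it.

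The 2-fold members were dim. Their median level was -5.10 for the lower and -5.46 for the higher set, against -1.75 over all features. Of the 72, 37 were well above background on all 6 arrays and 20 only on control arrays; of the 56, 39 were so on all 6 and 4 only on knockout arrays. For the rest some arrays give a bound. Where a gene was not well above background on a knockout array, that value was raised to the array's dimmest well-above-background level, and the fold is written as at least that size.

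**Figure D1:**
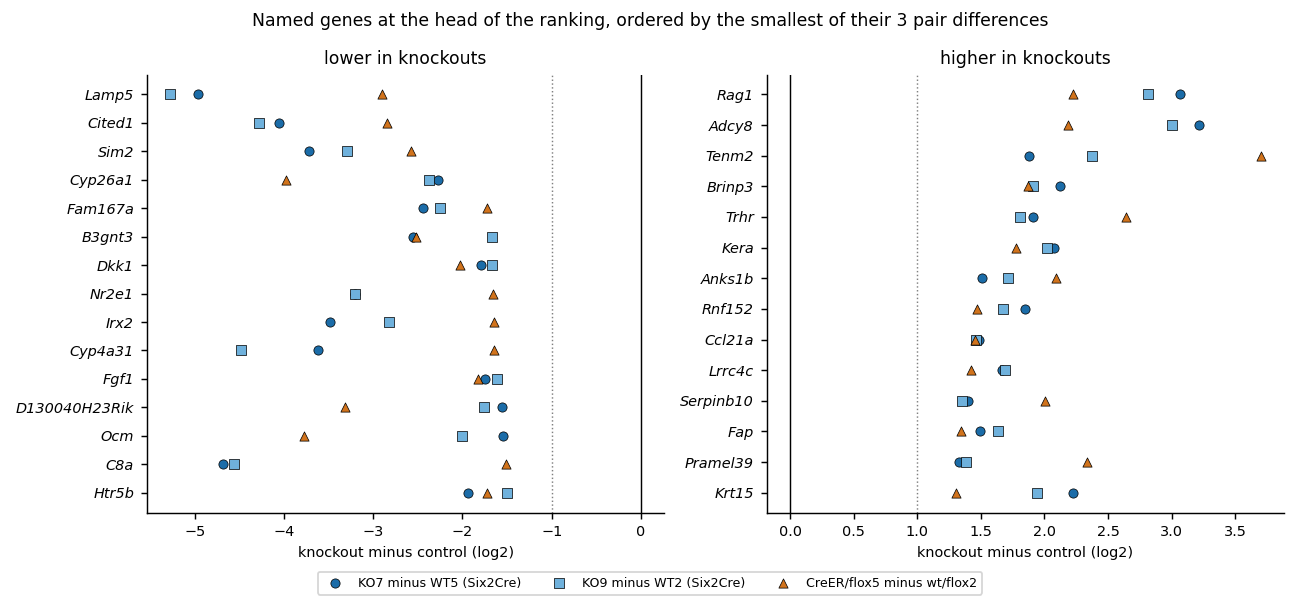
Knockout minus control differences (log2, x axis) of 15 named lower and 14 named higher genes at the head of the ranking, ordered by the smallest of their 3 pair differences. Circles are KO7 minus WT5, squares KO9 minus WT2 and triangles CreER/flox5 minus wt/flox2; dotted lines mark 2-fold. The 3 symbols of Ccl21a lie between 1.45 and 1.48, whereas those of Cited1 spread from -4.28 to -2.85. Values not well above background are plotted as measured and are not exact.

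Transcription regulators were among the genes lower in all 3 knockouts. Cited1, a transcriptional co-regulator, marks the least committed cap cells. It lay at 2.88 on WT5, 3.66 on WT2 and 3.90 on wt/flox2, and at -1.18 on KO7, -0.62 on KO9 and 1.05 on CreER/flox5. All controls lay above all knockouts, and the Six2Cre knockouts were lower than the CreER knockout. The signal was 16.6-fold, 19.4-fold and 7.19-fold lower in the 3 pairs, a mean difference of -3.73 (SE 0.32, n = 3; limma adjusted p = 0.191). Sim2, a bHLH-PAS transcription factor on the list of loop and distal tubule genes, was at -0.99, -1.74 and -2.03 on WT5, WT2 and wt/flox2 and at -4.70, -5.03 and -4.60 on KO7, KO9 and CreER/flox5. The 3 knockouts were close to each other, and the pair differences were -3.72, -3.30 and -2.57. Irx2, an Iroquois homeobox factor, differed by -3.49, -2.82 and -1.65, with controls from -2.12 to -1.18 and knockouts from -4.82 to -3.77. Sox8, an HMG-box factor on the ureteric tip list, had controls from -3.80 to -2.48, knockouts from -5.30 to -4.12 and differences of -1.50, -1.90 and -1.65.

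Genes of secreted signals and of their control stood beside these factors. Dkk1 encodes a secreted antagonist of Wnt co-receptors, and its promoter is printed above. Its level was 1.61, 1.52 and 1.44 on WT5, WT2 and wt/flox2, and -0.18, -0.15 and -0.58 on KO7, KO9 and CreER/flox5. Both groups were tight, each spanning less than the gap between them, and the signal was 3.46-fold, 3.18-fold and 4.07-fold lower (mean -1.83, SE 0.13, n = 3; limma adjusted p = 0.185). Fgf1, a fibroblast growth factor, was lower by a similar amount in each pair, with -1.75, -1.61 and -1.83. Wnt6, a Wnt ligand, differed by -1.15, -1.75 and -1.04. Cyp26a1, the enzyme that degrades retinoic acid, had controls from -3.43 to -2.96. It lay at -5.70 on KO7 and -5.38 on KO9, and was not well above background on CreER/flox5, which gives 4.82-fold, 5.19-fold and at least 11-fold lower signal.

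Other genes at the head of the lower ranking have varied roles. Lamp5, a brain-type member of the LAMP membrane protein family, was at -2.62, -2.48 and -2.56 on WT5, WT2 and wt/flox2. It was not well above background on KO7 or KO9 and lay at -5.46 on CreER/flox5, so that it was at least 31.1-fold, at least 38.7-fold and 7.48-fold lower. No other named gene had a larger smallest difference among the lower ones. Htr5b, a serotonin receptor, differed by -1.94, -1.51 and -1.72. Chrna9, a nicotinic acetylcholine receptor subunit, was 3.30-fold and 2.81-fold lower in the Six2Cre pairs and at least 2.52-fold lower in the CreER pair, where the knockout was not well above background. Ocm, the calcium-binding oncomodulin, had differences of -1.55, -2.01 and -3.78 and so was lowest in the CreER knockout. Gpr83, a G protein-coupled receptor, had -2.02, -2.05 and -1.01.

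The genes of tubule transport and metabolism named next had smaller differences in the CreER pair than in either Six2Cre pair. Slc12a1, which encodes the Na-K-Cl cotransporter that loop of Henle cells use to reabsorb salt, was at 0.40, -0.63 and -0.83 on WT5, WT2 and wt/flox2. It was at -5.31 on KO7 and -7.33 on KO9, but at -1.88 on CreER/flox5. The signal was thus 52.5-fold and 104-fold lower in the Six2Cre pairs and 2.06-fold lower in the CreER pair. Umod, which encodes uromodulin of the same segment, differed by -2.98, -3.06 and -1.46, with controls from -3.61 to -3.35 and knockouts from -6.44 to -5.07. Slc2a2, a glucose transporter of the proximal tubule, had -2.91, -3.09 and -1.33, and Car4, a carbonic anhydrase, -2.30, -2.48 and -1.16. Apom, an apolipoprotein, had -2.08, -2.68 and -1.49. Kcnj1, a potassium channel gene on the list of loop and distal tubule genes, was just short of 2-fold in the CreER pair, with -4.66, -5.57 and -0.98.

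The other lower genes at the head of the ranking were dim. B3gnt3, a glycosyltransferase, the orphan nuclear receptor Nr2e1, the cytochrome P450 Cyp4a31, the complement component C8a and Lcn2, which encodes lipocalin 2, were well above background on all 3 control arrays and on no knockout array. Over the 3 pairs C8a was at least 5.17-fold lower, Cyp4a31 at least 2.28-fold, B3gnt3 at least 1.61-fold, Nr2e1 at least 1.45-fold and Lcn2 at least 1.36-fold. In the CreER pair alone, C8a was at least 2.25-fold and B3gnt3 at least 1.20-fold lower. No fold could be given there for Cyp4a31, Nr2e1 or Lcn2, whose wt/flox2 level lay below the dimmest well-above-background level of CreER/flox5. Fam167a, well above background on all 6 arrays, differed by -2.45, -2.25 and -1.73. D130040H23Rik had -1.55 and -1.76 in the Six2Cre pairs and was at least 2.48-fold lower in the CreER pair, where its knockout was not well above background.

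Further named genes of the 72, with Wnt6, Gpr83, Slc2a2, Car4 and Apom above, were chosen for mention after their values had been seen, to account for the set. Dapl1 and Hes5, given with their lists below, also belong to it. Dync1i1, a dynein intermediate chain (-1.34, -1.97 and -2.30), and Akr1c18, a hydroxysteroid dehydrogenase (-1.34, -1.75 and -2.48), were lower by more in the CreER pair. The homeobox gene Lbx2 had -1.03, -1.56 and -1.07, Spon1, which encodes an extracellular matrix protein, -1.30, -1.40 and -1.08, and Moxd1, a monooxygenase relative, -1.06, -1.34 and -1.42. Cidea, a lipid droplet protein gene, had -2.66, -3.20 and -1.37. Sh3bgr (-1.01, -1.50 and -1.10), a muscle gene by background, had its largest difference in the pair with WT2, the array with muscle transcripts. F2, which encodes prothrombin, and Serpind1, a serpin, are liver genes by background, and both were brightest on WT2, with differences of -3.28 and -3.09 in its pair against -1.26 and -1.28 in the slide 1 pair. On CreER/flox5 neither was well above background, which gives at least 1.82-fold for F2 and no fold for Serpind1. Others were Spag11a, Foxb1, Defb35, Fbxw16, Defb12, Igfals, Fbxw24, Tppp, Eddm3b and Kcnk10. Each was not well above background on at least 1 array. For Foxb1, Defb35, Fbxw16, Defb12 and Fbxw24 the CreER pair gave no fold.

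**Figure D2:**
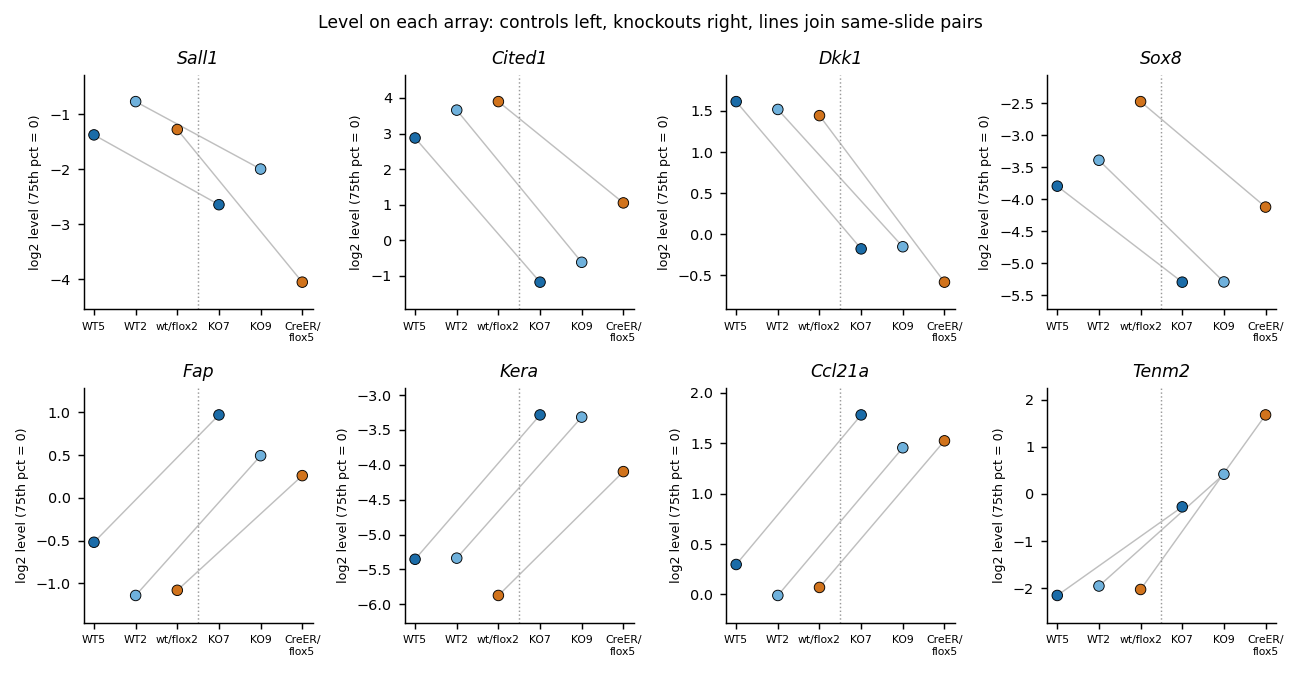
Level (log2, 0 = the array's 75th percentile, y axis) of 8 genes on each array, controls left and knockouts right of the dotted line, with lines joining same-slide pairs. Points are single arrays without error bars. Sall1, Cited1, Dkk1 and Sox8 were lower on every knockout than on any control, and Fap, Kera, Ccl21a and Tenm2 were higher; Dkk1 controls lie between 1.44 and 1.61.

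Genes of signalling and of the extracellular matrix were among the members higher in all 3 knockouts. Ccl21a, a chemokine that draws cells bearing the receptor CCR7, was at 0.30, -0.01 and 0.07 on WT5, WT2 and wt/flox2, and at 1.78, 1.46 and 1.52 on KO7, KO9 and CreER/flox5. The 3 pairs hardly differed, with 2.80-fold, 2.76-fold and 2.74-fold higher signal (mean 1.47, SE 0.11, n = 3; limma adjusted p = 0.185). Mice carry near-identical copies of this gene, which the probe may also read, so the value is uncertain as to the copy. Vegfc, a growth factor of lymphatic vessels, was likewise even, with 1.13, 1.21 and 1.24 and levels from 1.55 to 1.67 in controls and from 2.76 to 2.85 in knockouts. Fap, a fibroblast surface protease, was at -0.52, -1.14 and -1.08 on WT5, WT2 and wt/flox2 and at 0.97, 0.49 and 0.26 on KO7, KO9 and CreER/flox5. Its groups did not overlap, and the differences were 1.49, 1.63 and 1.34. Kera and Aspn, small leucine-rich proteoglycans of connective tissue, had 2.07, 2.02 and 1.78, and 1.67, 1.37 and 1.09. Hhip, which encodes a Hedgehog-binding protein, had 1.90, 1.84 and 1.04.

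Several higher members are best known from the nervous system, by background knowledge of the single genes. Tenm2, a teneurin adhesion protein, was at -2.15, -1.95 and -2.03 on the controls and at -0.28, 0.42 and 1.67 on KO7, KO9 and CreER/flox5. The CreER knockout was the highest, at 13-fold above its control, against 3.68-fold and 5.17-fold in the Six2Cre pairs. Adcy8, an adenylyl cyclase, went the other way, with 3.22, 3.0 and 2.19. Lrrc4c, a netrin-G ligand, had 1.67, 1.69 and 1.42, Anks1b 1.51, 1.72 and 2.09, and Brinp3 2.12 and 1.91 in the Six2Cre pairs; it was not well above background on either array of the CreER pair. Trhr, the receptor of thyrotropin-releasing hormone, had 1.91, 1.81 and 2.64. On the list of neural markers, which covers neurons and glia, 3 of 13 measured genes were higher in all 3 pairs and 4 were lower.

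Other higher genes had varied roles. Rag1, the recombinase of lymphocyte receptor genes, was well above background on the 3 knockout arrays and on no control array, at least 5.52-fold higher over the pairs and at least 4.45-fold in each. Krt15, a keratin, differed by 2.22, 1.94 and 1.30, Rnf152, a ubiquitin ligase, by 1.85, 1.67 and 1.47, Serpinb10 by 1.40, 1.35 and 2.01, and Pramel39 by 1.33, 1.38 and 2.33. The homeobox gene Nkx6-1 had 1.02, 2.03 and 3.10, and the forkhead gene Foxp2 1.06, 1.65 and 1.18. Further named members of the 56 were Vwc2, Deup1, Nol4, Pcdh15, Isx, Tafa1, Lhfpl3 and Cnih3. Like Vegfc, Aspn, Hhip, Foxp2 and Nkx6-1, they were chosen for mention after their values had been seen. Nol4 and Isx were not well above background on either array of the CreER pair.

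Of the 128 members past 2-fold, 50 carry no gene name here, 23 lower and 27 higher. The transcript AK030581 was well above background on the 3 controls and on no knockout, and was at least 9.41-fold, at least 12.4-fold and at least 4.59-fold lower. AK078370 was well above background on the 3 knockouts and on no control, and was at least 22.5-fold, at least 17.3-fold and at least 6.96-fold higher. As neither was measured on both sides, they have no rank.

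Other probes of the same genes gave a reading that the choice of members had not used. For 7 of the lower genes or transcripts the array holds 8 further probes, and 8 of 8 were lower in all 3 pairs, where 19.2% of such probes were over all features. For 6 higher ones, 7 of 7 further probes were higher in all 3, against 13.6%. The additional Dkk1 probe gave -1.76, -1.61 and -2.15, and both further Irx2 probes lay between -3.87 and -1.98 in every pair. The other Tenm2 probe gave 1.86, 2.33 and 3.62. These probes were read on the same arrays and so share their RNA.

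**Figure D3:**
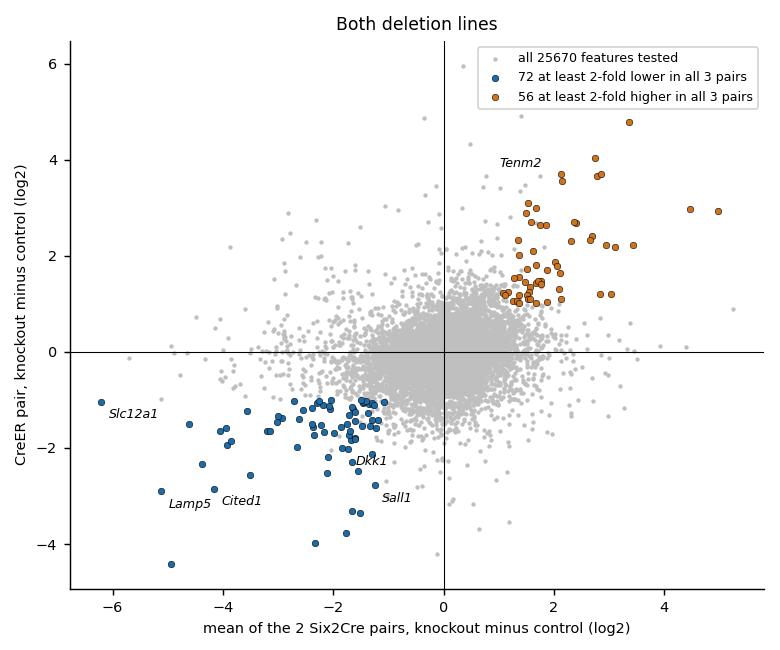
Mean difference of both Six2Cre pairs (x axis) against the difference of the CreER pair (y axis), knockout minus control in log2. Grey points are all 25670 features tested, blue points the 72 and orange points the 56 that were at least 2-fold lower or higher in all 3 pairs. Slc12a1 lies far to the left and near -1 on the y axis, whereas Sall1 lies at -1.25 and -2.78.

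The CreER pair shares no array with the Six2Cre pairs, so features chosen in the one line were read in the other. The filter of at least 3 arrays well above background counted the CreER arrays too, so the choice was not fully independent of them. Of 416 features (1.62%) at least 2-fold lower in both Six2Cre pairs, 300 (72.1%) were lower in the CreER pair, where 51.0% of all features were. Of these 416, 72 (17.3%) were at least 2-fold lower there, against 1.94% of all features. In the other direction, 232 of 342 features (67.8%) were higher in the CreER pair, with 49.0% of all features, and 56 (16.4%) at least 2-fold, with 1.49%. Where all 6 arrays had to be well above background, 37 of 304 (12.2%) were at least 2-fold lower in the CreER pair. For higher features it was 39 of 240 (16.2%). The share of all features under this stricter filter was not taken, so 1.94% and 1.49% are not the background of these 2 shares. The line difference itself was called for 0 features in either direction (0.0%; limma, lowest adjusted p = 0.422), with 774 lower (3.02%) and 561 higher (2.19%) at an unadjusted p under 0.05. That fit has 1 residual degree of freedom and takes the CreER pair to vary like the Six2Cre pairs. The wt/flox2 and CreER/flox5 arrays share slide 2 with WT2 and KO9, and the share for lower features was 61.4% when features were chosen on the KO9 pair alone. Chosen on the KO7 pair of slide 1 alone, it was 72.7%. For higher features these shares were 58.0% with the KO9 pair and 61.9% with the KO7 pair. The part of the shared slide was not tested.

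The share of one direction did not rise all the way with the size of the Six2Cre difference. Among features lower in both Six2Cre pairs, the share lower in the CreER pair was 55.7% where the smaller difference was under 0.25, 75.8% between 2-fold and 4-fold and 64.4% from 4-fold upwards. For higher features the same shares were 54.2%, 68.5% and 63.6%. The share at least 2-fold lower in the CreER pair did rise with each class, from 42 of 4280 features under 0.25 to 45 of 281 between 2-fold and 4-fold and 27 of 135 from 4-fold upwards. The same held for higher features, with 40 of 5560, 39 of 298 and 17 of 44. Slc34a1, the phosphate cotransporter of the proximal tubule, was in the lower one, with -6.06 and -5.36 in the Six2Cre pairs and -0.12 in the CreER pair; it was named after its values had been seen.

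**Figure D4:**
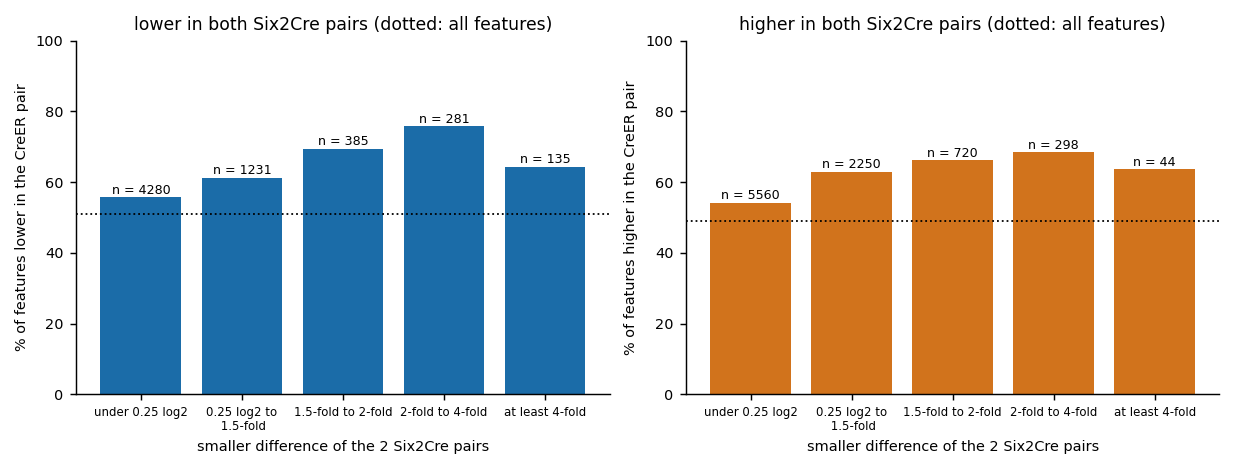
Share of features (%, y axis) lower, left, or higher, right, in the CreER pair, by the smaller of their differences in the Six2Cre pairs (x axis). Bars carry the number of features, and the dotted line is the share over all features, 51.0% for lower and 49.0% for higher. All bars stand above it, and the 2-fold to 4-fold class is the highest in both panels.

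Read the other way, 184 of 499 features (36.9%) that were at least 2-fold lower in the CreER pair were lower in both Six2Cre pairs, against 24.6% of all features. For higher features it was 215 of 382 (56.3%), against 34.6%. Of the 499, 94 were well above background on both CreER arrays, and of the 382, 289 were. CreER/flox5 is the array with the fewest probes above background, and its part in this gap was not tested. Within the 72 shared lower features the median difference was -2.01 over the Six2Cre pairs and -1.55 in the CreER pair, and 51 of 72 were smaller in the CreER pair. For the 56 higher features the medians were 1.76 and 1.75, and 32 of 56 were smaller there. All these sizes are as measured, although 37 of the 72 and 39 of the 56 were well above background on all 6 arrays. The dimmest well-above-background level was -6.42 on CreER/flox5, against -7.88 on KO7 and -7.99 on KO9. Lower features dim on CreER/flox5 thus have no exact size there, and the part of this floor in the smaller CreER differences was not tested.

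The lists of nephrogenic genes leaned to the lower side in both lines. Of 29 nephron progenitor genes measured, 19 were lower in all 3 pairs, or 65.5%, and 1 was higher, with medians of -0.97, -0.88 and -0.24 in the KO7, KO9 and CreER pairs. Over all features tested, the medians were 0.02, 0.06 and -0.0046, and 14.4% were lower and 20.0% higher in all 3 pairs, the background for every list count that follows. Dapl1 (-1.15, -1.45 and -2.13) and Capn6 (-0.88, -0.82 and -1.10) differed by more in the CreER pair than in either Six2Cre pair. Osr1, an early kidney mesenchyme factor, had -1.20, -0.56 and -1.01. Six2, which keeps progenitors undifferentiated, had -1.40, -1.79 and -0.50, and Eya1, its partner, -1.11, -1.01 and -0.22. Lypd1 was the 1 higher gene, with 0.72, 0.92 and 1.16. The summed level of the list was 90.8, 101 and 101 on WT5, WT2 and wt/flox2 and 47.2, 47.8 and 73.4 on KO7, KO9 and CreER/flox5. Osr1, Six2 and Eya1 were named after their values had been seen, and no gene of any of the 23 lists passed limma's paired fit.

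Early nephron genes, of renal vesicle and S-shaped body, had 18 of 27 members lower and 2 higher in all 3 pairs, with medians of -1.01, -0.78 and -0.27. Hes5, a Notch target, differed by -2.31, -1.85 and -1.13, and Lfng, a modifier of Notch receptors, by -1.27, -1.40 and -0.86. Lhx1, a renal vesicle factor named after its values had been seen, had -1.84, -1.35 and -0.15, so that its CreER value was small beside the others. The Notch pathway list had 7 of 16 members lower and 0 higher, with medians of -0.40, -0.40 and -0.0042. In the CreER pair 8 of its genes were lower and 8 higher. Its ligand Dll1 had -1.88, -1.25 and -0.47 and the target Nrarp -0.86, -0.76 and -0.31. Of 15 Wnt targets, 5 were lower and 2 higher in all 3 pairs, with medians of -0.47, -0.36 and 0.05. Beyond Dkk1 and Cited1, the receptor Lgr5 had -1.15, -1.03 and -0.80 and the factor Tcf7 -0.74, -0.59 and -0.22. Of 14 FGF targets, 5 were lower and 1 higher, with -0.60, -0.47 and 0.09 as medians; Myc had -1.17, -0.96 and -0.15, Etv4 -0.91, -1.49 and -0.04, Spry1 -0.51, -0.65 and -0.10, and Dusp6 -0.04, -0.07 and -0.02.

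Among the segment lists of the later nephron, the proximal tubule medians had opposite signs in the lines. Of 25 proximal tubule genes, 18 were lower in both Six2Cre pairs but 17 were higher in the CreER pair, and the medians were -1.64, -1.57 and 0.28. Of these genes, 7 were lower and 4 higher in all 3 pairs. Amn, a part of the endocytic receptor, had -3.94, -3.67 and -0.27, and Anpep, a brush border peptidase, had 0.67, 0.56 and 0.29. Slc5a12 and Kap were higher in all 3 but not well above background on 3 and 2 of the arrays. Loop and distal tubule genes had 10 of 17 lower and 3 higher, with medians of -0.34, -0.78 and -0.38. Summed levels did not follow these medians: for the loop and distal list they were 24.5, 21.2 and 21.5 on WT5, WT2 and wt/flox2 and 37.7, 28.3 and 24.7 on KO7, KO9 and CreER/flox5. For the proximal list they were 35.0, 40.1 and 39.7 on the controls and 41.7, 36.1 and 48.9 on the knockouts. Of 20 podocyte genes, 6 were lower and 4 higher, with -0.28, -0.22 and 0.14; the higher share of 20.0% equals the background and the lower one is 30.0%. Plce1 had -0.40, -0.55 and -0.10, Kirrel 0.36, 0.12 and 0.29, and Col4a3 0.55 and 1.00 in the Six2Cre pairs, being not well above background on CreER/flox5.

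The ureteric bud gave opposite leanings for tip and trunk. Of 16 tip genes, 12 were lower and 3 higher in all 3 pairs, with medians of -0.32, -0.50 and -0.17. Besides Sox8, Tmem59l had -0.83, -1.01 and -1.14, whereas Adamts18, a secreted protease, was higher with 0.83, 1.69 and 1.38. Of 19 trunk and collecting duct genes, 2 were lower and 9 higher, with 0.79, 0.34 and 0.07. Krt19 had 1.55, 0.62 and 0.44, Calb1 0.81, 0.44 and 0.25, Upk1b 1.91, 0.49 and 0.27, and Foxi1, a factor of intercalated cells, -1.21, -1.97 and -0.33. 

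Of the 23 lists, that of macrophage markers had the largest share of one direction. Of 18 measured, 16 were higher in all 3 pairs and 0 lower, and all 18 were higher in the CreER pair, with medians of 0.68, 0.77 and 0.36. Ptprc, the pan-leukocyte surface gene, was at -1.53, -1.49 and -1.34 on WT5, WT2 and wt/flox2 and at -0.67, -0.61 and -0.80 on KO7, KO9 and CreER/flox5. Its groups did not overlap, and the differences were 0.86, 0.88 and 0.54. The chemokines Ccl4 (0.76, 0.85 and 0.87) and Ccl3 (0.87, 0.71 and 0.54) and the adaptor Tyrobp (0.87, 0.71 and 0.43) were of like size. The summed level was 5.92, 7.06 and 7.28 on the controls and 9.32, 11.6 and 9.26 on KO7, KO9 and CreER/flox5, so that the groups did not overlap. No macrophage gene was at least 2-fold higher in all 3 pairs, and the part of these cells in the other higher genes was not tested.

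Stroma had 11 of 24 genes higher and 0 lower in all 3 pairs, with medians of 0.50, 0.60 and 0.05, so that the lean was seen mainly in the Six2Cre line; the difference of the medians between lines was not tested. Foxd1, the factor of cortical stroma, had 1.21, 1.33 and 0.24, Smoc2 1.18, 1.42 and 0.44, Aldh1a2, a retinoic acid synthesis enzyme, 0.95, 0.58 and 0.38, and the Wnt inhibitor Sfrp1 0.50, 0.88 and 0.46. The summed stromal level was 229, 222 and 207 on WT5, WT2 and wt/flox2, and 343, 329 and 227 on KO7, KO9 and CreER/flox5. Of 15 endothelial genes 2 were higher and 0 lower in all 3 pairs, with 13 higher in the CreER pair; Esam had 0.19, 0.24 and 0.19 and Emcn 0.56, 0.05 and 0.26. Erythroid genes had 4 of 10 higher and 1, Epor, lower (-0.37, -0.57 and -0.06), with a median of 0.75 in the CreER pair. Their summed level was 89.7 on wt/flox2, the control of that pair, and between 131 and 161 on the other 5 arrays. Hbb-bh1, an embryonic globin, had 0.47, 1.03 and 0.75, and Hba-a1 0.15, 0.29 and 0.79. Muscle genes had 2 of 16 lower and 0 higher, and their median was -4.18 in the pair with WT2 against 0.26 and 0.60. Those 2 were Des (-1.32, -1.59 and -0.70) and Tnni1 (-0.40, -2.90 and -0.12).

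**Figure D5:**
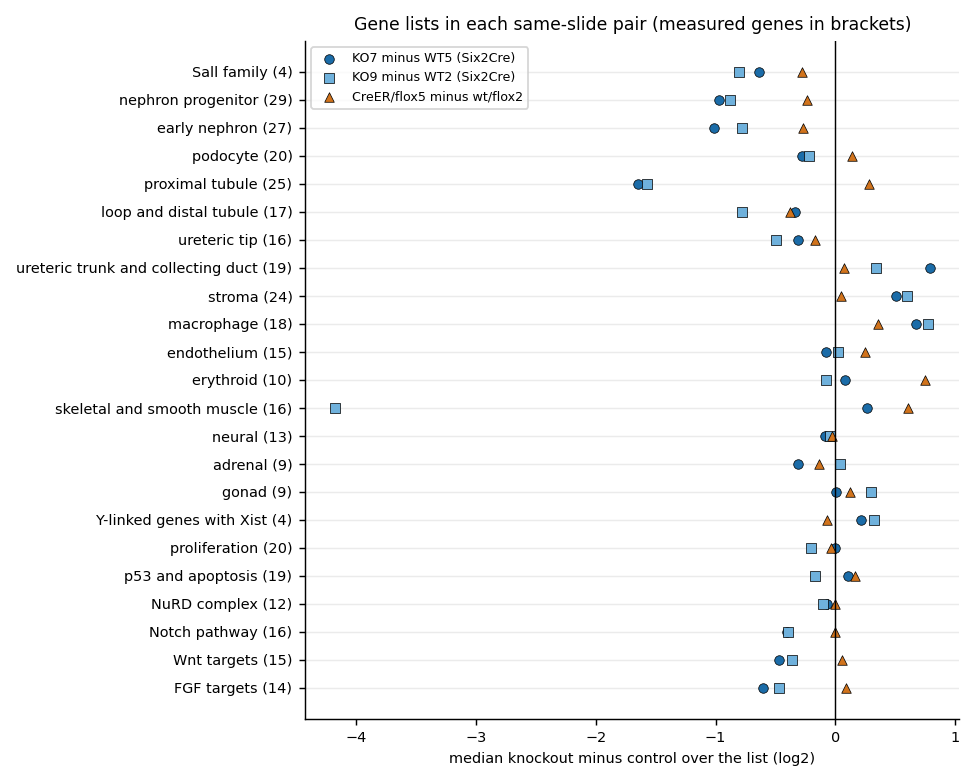
Median knockout minus control difference (log2, x axis) over each of 23 gene lists, with the number of measured genes in brackets. Circles are KO7 minus WT5, squares KO9 minus WT2 and triangles CreER/flox5 minus wt/flox2. Nephron progenitor and early nephron medians lie below 0 in all 3 pairs and the macrophage medians above 0, while the proximal tubule medians are -1.64, -1.57 and 0.28.

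The remaining lists cover cell division, cell death and other tissues. Proliferation genes had 4 of 20 lower and 0 higher in all 3 pairs, with a median of -0.21 in the KO9 pair; Top2a had -0.29, -0.20 and -0.20, Mcm3 -0.33, -0.42 and -0.05, Mcm2 -0.04, -0.45 and -0.03, and Rrm2 -0.02, -0.42 and -0.15. Of 19 genes of p53 and apoptosis, 4 were higher and 2 lower, shares near the background. The death receptor gene Fas had 0.63, 0.48 and 0.44, Pmaip1 0.33, 0.80 and 0.51, and Trp53inp1 0.31, 0.36 and 0.57. Neural genes included Stmn3 (0.34, 0.79 and 0.90), Stmn2 (0.80, 1.70 and 0.25), Chga (-0.95, -0.26 and -0.30) and Dbh, with -0.43 and -0.36 in the Six2Cre pairs and not well above background on CreER/flox5. Of 9 adrenal genes, 2 were lower and 1 higher, namely Mrap (-0.63 and -0.92 in the Six2Cre pairs, not well above background on CreER/flox5), Mc2r (-0.43, -0.52 and -0.34) and Nr0b1 (2.45, 1.97 and 0.35). Of 9 gonad genes, Dazl was lower (well above background on 3 arrays), and Amh (0.27, 0.43 and 0.61) and Ddx4 (0.18, 1.1 and 0.76) were higher; the sign of the Dazl mean turned with normexp correction. The 4 Y-linked genes measured had near-equal levels on all arrays, with 2 higher in all 3 pairs: Eif2s3y by 0.30, 0.45 and 0.01 and Ddx3y by 0.10, 0.02 and 0.01.

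Sall1 has 3 relatives on the array. Sall3 was at -2.07, -1.93 and -2.79 on WT5, WT2 and wt/flox2 and at -4.55, -4.47 and -3.48 on KO7, KO9 and CreER/flox5. It was 5.60-fold and 5.82-fold lower in the Six2Cre pairs and 1.62-fold lower in the CreER pair (mean -1.91, SE 0.43, n = 3; limma adjusted p = 0.395). Sall4 was higher in all 3 pairs by 0.15, 0.33 and 0.13, with overlapping groups. Sall2 did not keep a direction, with -0.01, -0.38 and 0.28. SALL proteins recruit the NuRD chromatin remodelling complex; of its 12 measured genes, Mta1 alone kept a direction, with -0.10, -0.35 and -0.03.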

How the data were processed

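The 6 arrays are one-colour Agilent mouse arrays; per the labels, 0.25 ug of total RNA per sample was labelled with Cy3. Per the file headers, Feature Extraction 10.5.1.1 gave a processed signal, a background-subtracted intensity on a linear scale. The values of the deposited matrix are equal to it (100% within a relative tolerance of 0.001).

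Log2 intensity of the deposited scanner files minus each array's 75th percentile was fitted with limma 3.58.1 in R 4.3.3 with pair as a block, which has 2 residual degrees of freedom. The difference between lines was fitted as a genotype by line term. Tests were two-sided with Benjamini-Hochberg adjustment at 0.05. Of 41174 probes, 40987 remained without outlier flags, and 24999 matched 17235 RefSeq genes; a gene's brightest probe stood for it. A filter of at least 3 of 6 arrays well above background left 25670 of 32515 (14970 named and 10700 unnamed). The fit was tested on simulated data. The number of arrays limits the precision. Figures used matplotlib 3.10.9, pandas 2.3.3 and Python 3.11.15.

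Genes named were Sall1; the first 15 lower and 15 higher by the smallest of the 3 pair differences; the 8 of lowest p each way; up to 4 per list in that ranking; the Sall family; and 8 each way of opposite sign in the CreER pair. The members and the 23 lists (352 of 374 genes measured, 19 in more than 1 list) were chosen with earlier results of these data known. Alternatives varied the filter, background correction, normalization, floor, probe choice, variance model, block and replicates. Some genes that this rule names are not reported here.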

Additional observations from a re-analysis of the deposited data

Results flagged for a closer look

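Among named genes at least 2-fold one way in both Six2Cre pairs, 16 with the opposite sign in the CreER pair are given as a contrast to the shared genes. Values are the CreER difference minus the mean of both Six2Cre differences, in log2. Every Six2Cre pair went one way and the single CreER pair the other. Limma's test of the difference between lines called none of them here. With the median in place of the 75th percentile it called all of them, so its outcome depends on the scaling.

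Genes lower in the Six2Cre knockouts and higher in the CreER knockout were mostly of the proximal tubule and of liver-type metabolism, by background. Ttn, a sarcomere gene, had 6.05, with a control level of -0.02 on WT2, the array with muscle transcripts. Spp2 had 5.22, the organic anion pump Abcc2 4.74, Gpx6 4.74, the deacetylase Aadac 4.65, the organic cation transporter Slc22a2 4.59, Cyp2d26 4.55 and the phosphate transporter relative Slc17a3 4.51. Abcc2 was not well above background on KO7 or KO9, Spp2 on KO9, nor Slc22a2 and Slc17a3 on KO7.

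Genes higher in the Six2Cre knockouts and lower in the CreER knockout included secreted and receptor genes. Mbl2, a mannose-binding lectin, had -3.73, and Csf3, the granulocyte colony-stimulating factor, had -3.65. The prostaglandin F receptor gene Ptgfr had -3.53, Efcab3 -3.37, the glutamate receptor Grm8 -3.23, the interleukin 1 receptor antagonist Il1rn -3.08, Pdzph1 -3.05 and the tachykinin receptor Tacr3 -3.00. Of these 8, Ptgfr and Tacr3 were well above background on all 6 arrays.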

How the results depend on the processing

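The 2-fold counts of 72 lower and 56 higher were 37 and 39 when all 6 arrays had to be well above background, 41 and 33 with a common floor, 78 and 129 without a filter, and 20 and 19 with normexp correction (18 and 18 shared); at 1.5-fold they were 224 and 225. Calls of the paired fit, 0 and 0 here, were 19 lower and 16 higher with normexp, 6 and 6 with eBayes trend and robust, and 43 and 48 with the median in place of the 75th percentile, where the line difference called 356. That scaling put the median of all features at 0.18 in the KO7 pair. Ccl21a, Dkk1, Fap, Sim2 and Vegfc passed in all 3 of these settings; why the counts of calls moved was not tested. The share of Six2Cre features lower in the CreER pair was 66.8% without a filter and 67.3% with normexp, and the share higher was 77.5% with all 6 arrays well above background and 80.3% with normexp.

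Leaving out each pair in turn gave 5830 to 7230 lower and 7546 to 8872 higher features, 96 to 416 at least 2-fold lower and 88 to 342 higher, since fewer pairs have to share a direction. The shares ran from 61.4% to 72.7% for lower and from 58.0% to 61.9% for higher, and the paired fit again called 0 and 0. Of 2349 values of named genes under the alternatives, 2278 kept direction and side of the threshold, 65 passed it and 6 turned sign. These 6 were Sall2 (0.13 without the pair KO9 and WT2, 0.044 without WT2 and 0.074 without KO9, in a range from -0.20 without the CreER pair), Dazl (0.025 with normexp) and Ddx3y (-0.048 without WT5 and -0.026 without KO9, up to 0.12 without WT2). Of 276 list medians, 14 moved by more than the spread between the pairs and 12, some of them within that spread, turned sign; these were of the endothelium, erythroid, muscle, neural, gonad and p53 lists. No paired analysis by replicate number was possible because the groups share fewer than 2 numbers; the block is the same-slide pair. Dim probes limit the precision: 86.95% of features were well above background on all 6 arrays, against 37 of the 72 and 39 of the 56.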
